A study of Homo sapiens with 9 samples.

Results

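The interferon response genes described here are 9 of the 20033 protein-coding genes of the annotation: STAT2, IRF1, IRF7, IRF9, ISG15, IFIT1, IFIT3, MX1 and STING1. They were taken by name, with earlier results of these data known. For each, all ATAC-seq peaks within 1 kb of the transcription start site (TSS) of its canonical transcript, and then all peaks within 50 kb, were collected from 9 peak lists. ATAC-seq marks accessible chromatin by letting the Tn5 transposase insert adapters into open DNA.

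The libraries were made from MDA-MB-231, an established human triple-negative breast cancer (TNBC) cell line. Replication differed between groups: shCtrl, shEZH2 and shE2F1 had 2 libraries each, and shSUZ12, DMSO and GSK126 had 1 each. The shRNA libraries came from cells transduced with lentivirus for 24 h and then selected over 72 h in puromycin at 2 μg/ml, with an shRNA against EZH2, SUZ12 or E2F1 or with the control shRNA. The drug-treated libraries came from cells given GSK126, an inhibitor of the EZH2 methyltransferase, for 72 h, or its DMSO control. EZH2 and SUZ12 are subunits of PRC2, the complex that methylates histone H3 at lysine 27, and E2F1 is a transcription factor of the cell cycle. The study asked how depletion of EZH2 and of E2F1 alters accessible chromatin. Here the 4 PRC2-perturbed libraries (2 shEZH2, shSUZ12, GSK126) were compared with the 3 controls (2 shCtrl, DMSO), and the 7 transduced libraries with the 2 drug-treated ones. Nothing in the labels says that replicates came from separate cultures, so p-values measure the spread between these libraries, which may be technical. Transduction, puromycin selection and any other difference between the sets cannot be told apart. ATAC-seq gives no RNA level, so depletion of EZH2, SUZ12 and E2F1 was not checked in these libraries. From other assays, the paper reports lowered EZH2 and E2F1 expression after their knockdown and shows EZH2 and SUZ12 protein levels.

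Interferons bind cell surface receptors whose JAK kinases phosphorylate STAT proteins. STAT2 and IRF9 are subunits of ISGF3, which binds the interferon-stimulated response element (ISRE). The gamma-activated site (GAS) is the element of the interferon gamma response. Their targets include antiviral effectors, and further transcription factors of the IRF family. STING1, IRF7 and related proteins act earlier, between the detection of foreign or misplaced nucleic acid and the production of interferon.

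The promoter sequences that hold these elements are shown first, because the promoter peaks reported below were taken around the same TSSs. Sequences were taken from RefSeq (GRCh38.p14), in which 7 of the 9 members matched an entry at the canonical TSS. No entry was matched for IRF7 and STING1. The ISRE core was searched as GAAANNGAAA on both strands and the GAS core as TTCNNNGAA, which reads the same on both strands. The 2 patterns can overlap each other and themselves. Of all 35116 RefSeq promoters of 300 bases (250 before the start), 3.57% held the ISRE core and 7.66% the GAS core. ISG15, IFIT1 and IFIT3 each held 2 ISRE core matches and no GAS core, whereas IRF1 and IRF9 each held 1 GAS core and no ISRE core. STAT2 and MX1 held neither in these letters. A match is a description of the letters and not evidence of binding. Positions are given in bases from the canonical TSS, negative upstream and positive downstream in the direction of transcription.

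Below are the stretches of the ISG15 (chr1:1013247-1013496), IFIT1 (chr10:89392373-89392545) and IFIT3 (chr10:89327747-89327940) promoters, all on the plus strand, starting 250 bases before the TSS and ending before the first annotated transcribed base. Capitals mark ISRE cores, which overlap in ISG15.
ISG15: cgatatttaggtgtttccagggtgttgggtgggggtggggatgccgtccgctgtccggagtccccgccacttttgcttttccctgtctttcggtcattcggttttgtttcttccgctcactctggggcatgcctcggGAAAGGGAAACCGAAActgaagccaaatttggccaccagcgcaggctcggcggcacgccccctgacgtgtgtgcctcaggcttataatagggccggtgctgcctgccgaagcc
IFIT1: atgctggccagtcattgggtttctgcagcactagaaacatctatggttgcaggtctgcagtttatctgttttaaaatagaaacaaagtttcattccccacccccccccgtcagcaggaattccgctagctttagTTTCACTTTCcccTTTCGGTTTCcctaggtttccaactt
IFIT3: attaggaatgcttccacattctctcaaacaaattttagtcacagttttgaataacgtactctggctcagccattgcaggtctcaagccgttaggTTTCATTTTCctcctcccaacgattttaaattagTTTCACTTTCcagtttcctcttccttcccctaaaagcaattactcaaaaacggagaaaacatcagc

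The GAS cores of IRF1 (chr5:132490778-132491023, minus strand) and IRF9 (chr14:24161191-24161220, plus strand) are shown in capitals. The IRF9 stretch is kept to 30 bases around the core.
IRF1: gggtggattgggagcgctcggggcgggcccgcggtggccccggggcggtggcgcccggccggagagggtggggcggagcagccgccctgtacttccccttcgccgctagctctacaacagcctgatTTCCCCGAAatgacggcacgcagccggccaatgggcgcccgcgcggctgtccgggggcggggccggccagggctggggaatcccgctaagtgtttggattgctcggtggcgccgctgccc
IRF9: gaccacgtgatTTCTGGGAAaaggccctcc

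Each of the 9 members had a promoter peak in every one of the 9 libraries, as did 12026 of all 20033 protein-coding genes. To compare libraries of different depth, each peak was given its percentile of fold enrichment, the ratio of the signal at the summit to its local background, within its own list. A promoter took the percentile of its strongest peak, so 100 would be the most enriched peak of a library. Lists held 58626 to 85812 peaks, the fewest in the second shEZH2 library. The most frequent background at a summit, which follows sequencing depth, was 1.41 tags in that library and reached 2.18 tags in the second shE2F1 library. A tag here is 1 count at the summit, and whether it stands for a sequenced end or a whole fragment is not given. The median percentile of the 9 members was 62.4 to 78.0 depending on the library. That of the 12026 promoters with a peak in every library was 73.4 to 82.0, and the members' median was the lower one in all 9 libraries.

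The promoters of the ISGF3 subunits had the highest medians and that of IRF7 the lowest. STAT2, which gives ISGF3 its activation domain, had the highest promoter, at percentiles of 89.6 to 95.8 (median 94.5). IRF9, the DNA-binding subunit of ISGF3, followed at 64.4 to 93.7 (median 85.4). IRF1, a transcription factor induced by interferon gamma, lay at 62.4 to 86.3 (median 77.4). These ranges overlap, so IRF9 and IRF1 were not separated beyond their spread.

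IFIT1, which binds RNA with foreign cap structures, had a median percentile of 75.7 (65.0 to 83.9). STING1, the adaptor of cytosolic DNA sensing, had one of 70.5 (65.1 to 83.4). Their spreads of 18.9 and 18.3 points were, after the 6.2 points of STAT2, the narrowest. ISG15, a ubiquitin-like protein that is conjugated to other proteins, had a median of 53.0 (22.9 to 74.6). IFIT3, a partner of IFIT1, had one of 40.9 (5.38 to 61.9), and MX1, a dynamin-like antiviral GTPase, one of 39.1 (14.7 to 78.0). The promoter of IRF7, the main factor of interferon alpha production, had the lowest median percentile, 16.8 (10.3 to 36.6). The order among ISG15, IFIT3 and MX1 did not exceed their spread.

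**Figure D1:**
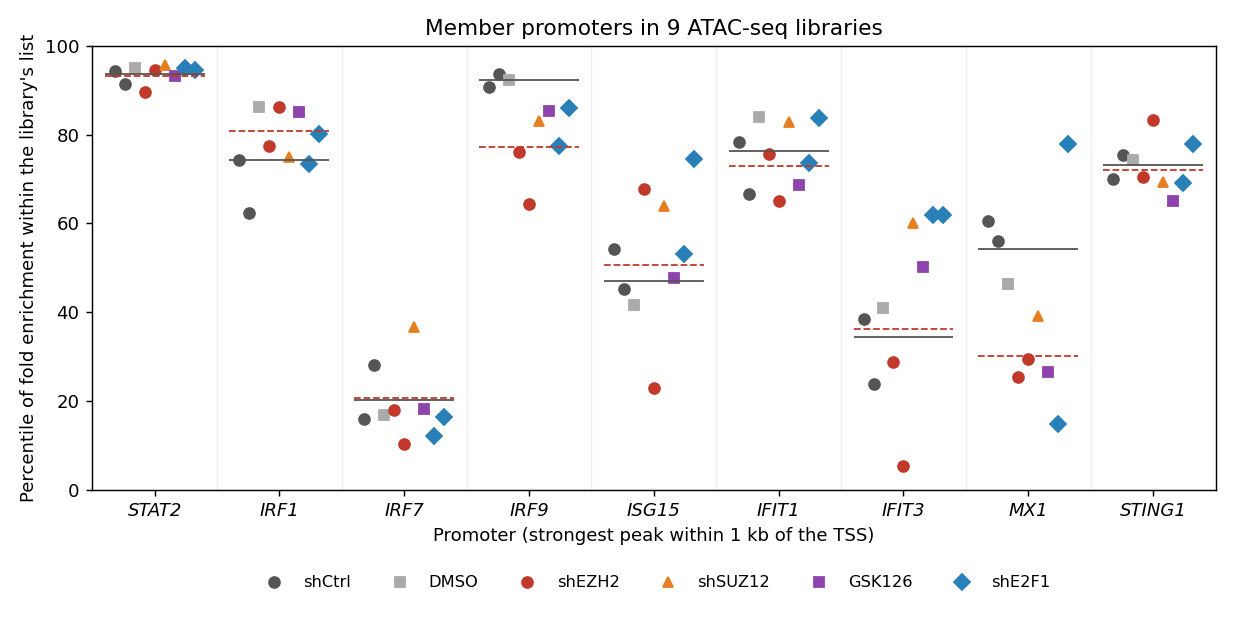
Percentile of fold enrichment within each library's list (vertical axis) of the strongest peak within 1 kb of the TSS of each member, with 1 point per library coloured by group. The solid line is the mean of the 3 control libraries and the dashed line that of the 4 PRC2-perturbed libraries, which lie apart without overlap of points for IRF9 and MX1.

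The counts behind these ranks differed between genes. Recovered summit tags were 108 to 247 for IRF1 and 57 to 193 for IRF9 but 15 to 42 for MX1, 15 to 56 for IFIT3 and 24 to 70 for ISG15. The 3 members with the widest ranges of percentiles, MX1, IFIT3 and ISG15, were therefore among those with few tags. IFIT1 also had few, at 26 to 56, with a narrow range of percentiles. IRF7, the lowest by percentile, had 58 to 148 tags, at fold enrichments of 4.27 to 5.8. Its low rank is that of a ratio to the local background and not of the number of tags. Whether depth contributes to the spread was not tested.

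The first question was whether perturbation of PRC2, by knockdown or by GSK126, went with a different rank of these promoters. IRF9 and MX1 ranked lower in all 4 PRC2-perturbed libraries than in any of the 3 controls, and no member ranked higher in all 4. The IRF9 percentile was 90.7 and 93.7 in the shCtrl libraries and 92.4 with DMSO. It was 76.0 and 64.4 in the shEZH2 libraries, 83.1 with shSUZ12 and 85.4 with GSK126. The shE2F1 libraries, at 77.4 and 85.9, were also below every control. Of the 4 PRC2-perturbed libraries, the second shEZH2 library was the lowest and GSK126 the nearest to the controls. The means were 92.3 ± 1.54 (SD, n = 3) and 77.2 ± 9.44 (SD, n = 4), a difference of -15.1 points. It was -8.85 when peaks were ranked by −log10 p and -27.9 when ranked among promoters alone.

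For MX1 the controls had percentiles of 60.6, 56.0 (shCtrl) and 46.4 (DMSO). The PRC2-perturbed libraries had 25.3 and 29.4 (shEZH2), 39.1 (shSUZ12) and 26.5 (GSK126). The gap between the groups lay between DMSO and shSUZ12, and the means of 54.3 ± 7.26 (SD, n = 3) and 30.1 ± 6.25 (SD, n = 4) differed by -24.2 points. The 2-sided exact permutation p over libraries was 0.0571 for either gene, the smallest that 4 against 3 libraries can give, so 0.05 could not be reached. Of all 12026 promoters fitted, 3.34% were lower without overlap and 2.13% higher, against 2 and 0 of the 9 members.

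The most frequent background was 1.95, 1.41, 1.46 and 2.11 tags in the shEZH2, GSK126 and shSUZ12 libraries, and 1.79, 2.08 and 1.79 in the controls. The part of depth in these differences was not tested. Within the drug-treated pair, GSK126 minus DMSO was -7.06 points for IRF9 and -19.8 for MX1. Within the transduced libraries the differences of the means were -17.7 and -27.0, also without overlap, which the separation in the full set fixes. In that subset 17.6% of all promoters did not overlap in either direction, beside 3 of the 9 members, the other being IRF1. The numbers of tags at the IRF9 summit were 164, 193 and 178 in the controls and 106, 57, 149 and 119 in the shEZH2, shSUZ12 and GSK126 libraries. At the MX1 summit they were 33, 37 and 27 in the controls. In the shEZH2, shSUZ12 and GSK126 libraries they were 20, 19, 28 and 20. The exact 95% Poisson interval of the first shCtrl count of MX1, 22.7 to 46.3, overlapped that of the first shEZH2 count, 12.2 to 30.9. Such intervals cover counting error only.

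**Figure D2:**
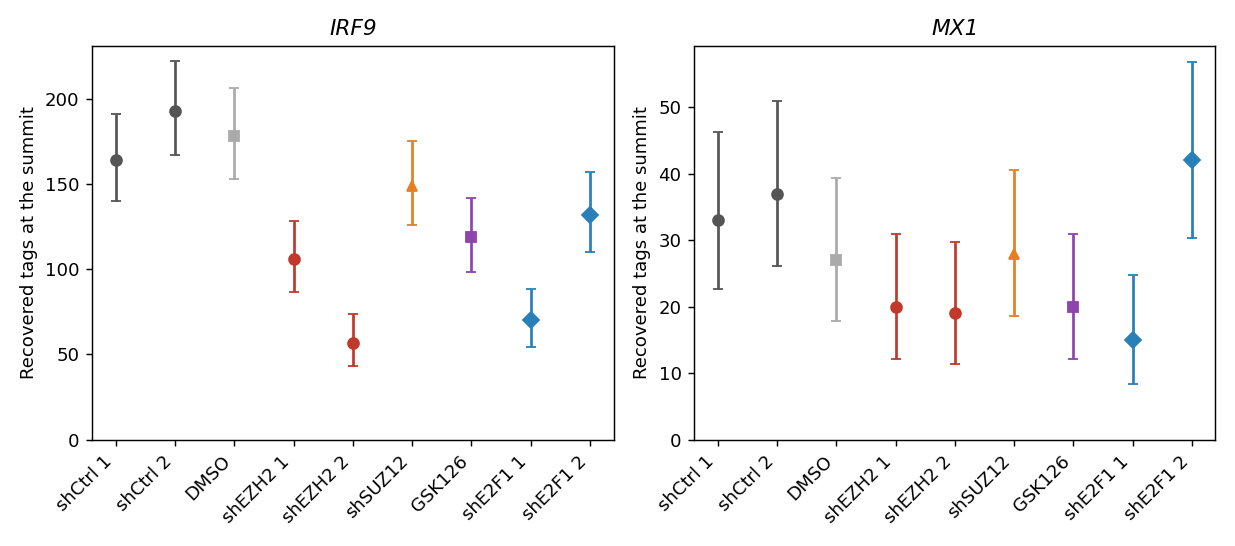
Recovered tags at the promoter summit (vertical axis, starting at 0) of IRF9 and MX1 in each library, with exact 95% Poisson intervals for counting error and no correction for depth. The counts of IRF9 are several times those of MX1, whose intervals overlap between controls and perturbed libraries.

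In the limma fit over all 12026 promoters, with terms for transduction, PRC2 perturbation and E2F1 knockdown, no promoter passed an adjusted p of 0.05 for PRC2 perturbation (0%). At an unadjusted p under 0.05 there were 434 promoters (3.61%), of which IRF9 was the only member. Its fitted difference was -14.6 points (SE 5.03, unadjusted p 0.0144, limma adjusted p 0.999). That of MX1 was -24.9 (SE 12.2, unadjusted p 0.0653, limma adjusted p 0.999), and 0.366% of promoters had a lower one. IRF1 had the highest difference of the members, at 7.49 (SE 5.52, limma adjusted p 0.999). The median over the 9 members was -0.312, beside -0.777 over all promoters. The MX1 separation ended where percentiles were taken among promoters alone, since the second shEZH2 library and DMSO both then stood at 13.7.

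**Figure D3:**
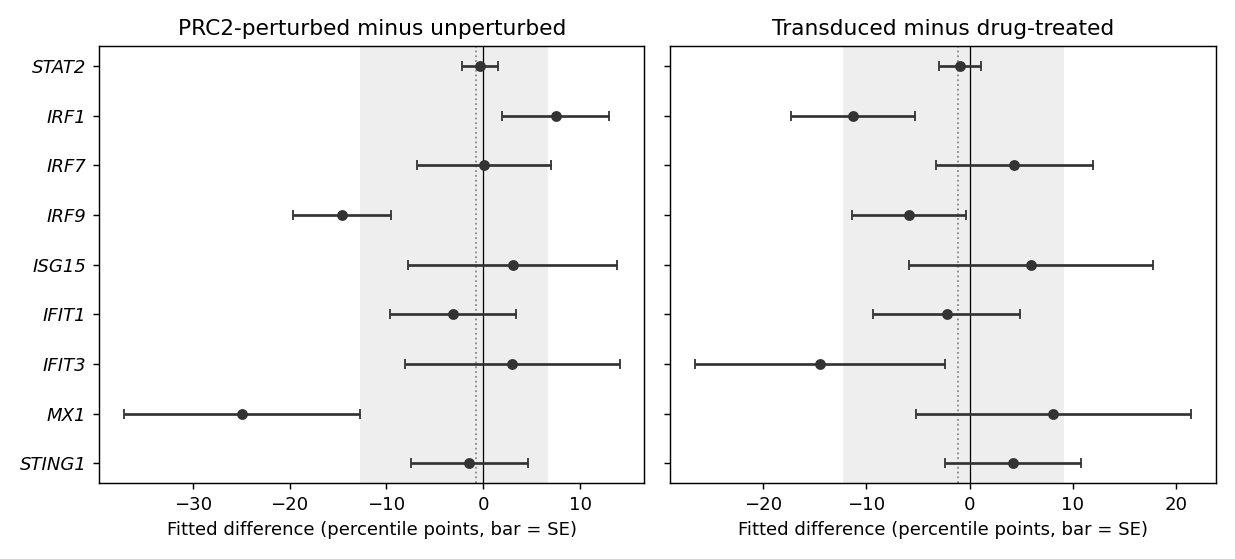
Differences fitted by limma, in percentile points, for the PRC2 term (left) and the transduction term (right), with bars for the SE. The grey band holds the central 90% of the 12026 promoters and the dotted line their median, and for PRC2 MX1 and IRF9 lie below the band and IRF1 above it.

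The remaining members overlapped between these groups. The means of the PRC2-perturbed and control libraries were 93.3 and 93.7 for STAT2, 20.7 and 20.3 for IRF7 and 36.1 and 34.4 for IFIT3. For ISG15 they were 50.6 and 47.0, for IFIT1 73.0 and 76.4 and for STING1 72.1 and 73.2. The IRF1 mean was 80.9 (75.0 to 86.2, n = 4) against 74.4 (62.4 to 86.3, n = 3). Among the transduced libraries alone, IRF1 was 77.4, 86.2 and 75.0 in the shEZH2 and shSUZ12 libraries and 74.4 and 62.4 in the shCtrl libraries, which do not overlap (exact permutation p 0.2, the smallest for 3 against 2). With GSK126 and DMSO it was 85.0 and 86.3.

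The second question was whether transduced cells differed from drug-treated ones, since lentiviral delivery itself brings foreign nucleic acid into the cell. No member separated the 7 transduced from the 2 drug-treated libraries in either direction. Over all promoters fitted, 1.56% were higher in every transduced library and 4.23% lower. IRF1 came nearest, with 62.4, 75.0 and 86.2 as the lowest, median and highest of the transduced libraries, against 85.0 and 86.3. Only the second shEZH2 library reached the drug-treated ones. The exact permutation p was 0.111, where 7 against 2 libraries allow no p below 0.0556.

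ISG15 had a lowest, median and highest percentile of 22.9, 54.2 and 74.6 after transduction and values of 41.6 and 47.7 with the drug treatments. For IFIT1 these were 65.0, 75.7 and 83.7 against 83.9 and 68.7. IFIT3 had 5.38, 38.5 and 61.9 against 40.9 and 50.1, and MX1 14.7, 39.1 and 78.0 against 46.4 and 26.5. In each of these 4 genes the transduced libraries reached both below and above at least 1 drug-treated library. For IFIT3, the lowest and highest transduced values belong to an upstream peak, described below, and both drug-treated values to a peak near the TSS. The IFIT3 difference of the means was -5.47 points. With the peak nearest to the TSS, an alternative chosen after seeing the data, it was -20.9, also with overlap. Among STAT2, IRF7, IRF9 and STING1 the difference of the means was farthest from 0 for IRF9, at -7.29 points.

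The limma term for transduction called no promoter (0%), with 382 (3.18%) at an unadjusted p under 0.05 and no member among them. The fitted differences ran from -14.5 (SE 12.1) for IFIT3 and -11.3 (SE 6.05) for IRF1 to 8.11 (SE 13.3) for MX1, all with a limma adjusted p of 0.999. The IRF1 difference was -0.598 when ranked by −log10 p, -5.46 without DMSO, and -17.9 without GSK126. The members' median was -0.961, beside -1.16 over all promoters. Between the shCtrl and DMSO libraries alone, 6 of the 9 members did not overlap, with DMSO above both shCtrl libraries for STAT2, IRF1, IFIT1 and IFIT3 and below both for ISG15 and MX1. Of all promoters 68.2% did not overlap between these libraries, so the members' count is near the background.

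The IFIT3 promoter held 2 separate peak sites, and which of them was stronger differed between libraries. The one near the TSS had its summit at 301 to 354 in 7 of the 8 libraries that listed it, and the other at -1054 to -899. In the shE2F1 libraries the upstream peak ranked at 61.8 and 61.9, with 42 and 56 summit tags. It ranked at 8.4 in the second shCtrl library and 23.7 and 5.38 in the shEZH2 libraries. No separate upstream peak was listed with DMSO, GSK126 or shSUZ12. In the first shCtrl library a single peak of 1585 bases covered both sites, so its upstream summit has no value of its own.

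The peak near the TSS ranked at 9.28 and 6.23 in the shE2F1 libraries, at 38.5 and 23.7 with shCtrl, and at 28.8 in the first shEZH2 library. In the second shEZH2 library no peak near the TSS was listed. It ranked at 40.9 with DMSO, 50.1 with GSK126 and 60.2 with shSUZ12. Both shE2F1 libraries therefore had the lowest listed ranks near the TSS and the highest upstream, although in the second shE2F1 library the summit near the TSS lay at 45. The limma difference for E2F1 knockdown at IFIT3 was 32.3 (SE 13.8, unadjusted p 0.0384, limma adjusted p 0.97), and no promoter was called for that term (0%, with 560 at an unadjusted p under 0.05). Taking the peak nearest to the TSS in place of the strongest one, an alternative chosen after seeing the data, gave -21.8. The sign thus follows which peak stands for the promoter.

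The ISRE cores of the promoter stretch above, at -156 and -122, lie between the summits of these sites. No listed peak covered them in the shEZH2 libraries or in the first shE2F1 library.

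**Figure D4:**
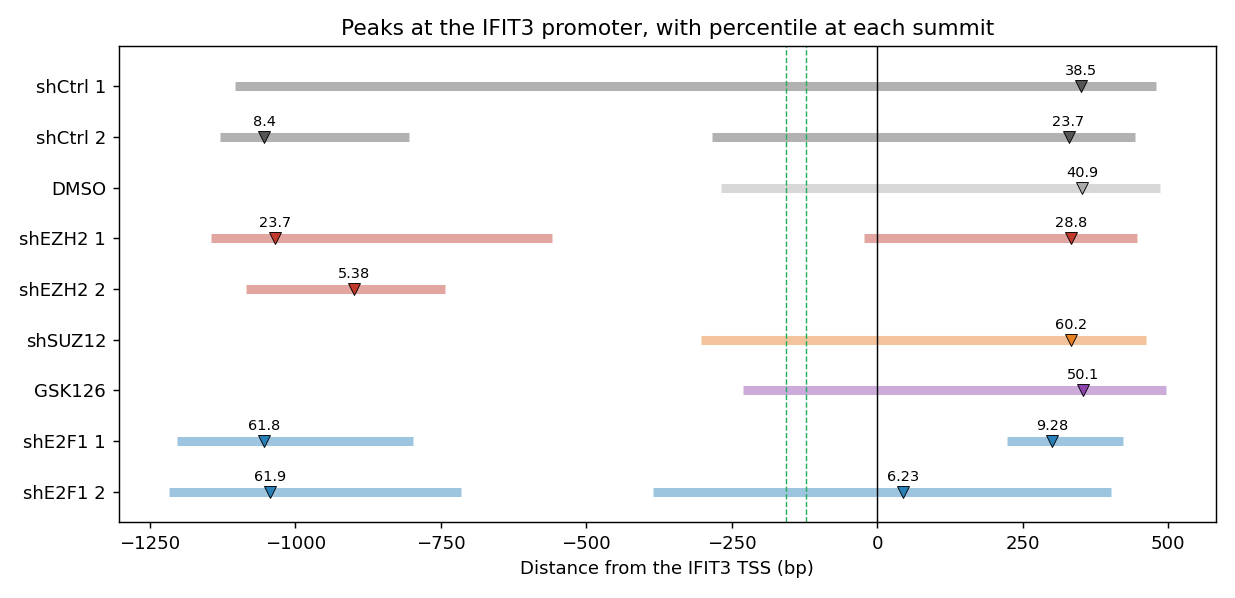
Peaks of each library at the IFIT3 promoter by distance from the TSS in bases, with a bar for the extent of a peak, a triangle for its summit and its percentile above. Dashed lines mark the 2 ISRE core matches, and the upstream peak ranks at 61.8 and 61.9 in the shE2F1 libraries.

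The place of the summit varied less at IRF9, IFIT1 and STING1 than at IRF7 and MX1. The IRF9 summits lay at -100 to -42 in all 9 libraries, across the GAS core at -63. The IFIT1 summits lay at -105 to -22, downstream of or beside its ISRE cores, which start at -116 and -103. STING1 summits lay at 379 to 437, inside the gene. For IRF7 the summit was at -105 to -45 in 7 libraries, but at 232 and 245 in the shE2F1 libraries. The MX1 summit was at -85 to 45 in 8 libraries and at 640 in the first shE2F1 library, which also had the lowest MX1 percentile (14.7) and the fewest tags (15). The second shE2F1 library had the highest (78.0), so the replicates of shE2F1 lay at both ends of the range.

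The wider neighbourhood was described by merging overlapping peaks of the 9 lists into regions. Within 50 kb of the 9 TSSs lay 107 regions, of which 74 were more than 1 kb from the canonical TSS of any protein-coding gene. These are called away from promoters below. Other annotated starts were not considered, so a region at such a start, as at -5681 from the canonical MX1 TSS, counts among them. A peak in every library was found in 55 (51.4%), compared with 34.2% of all 118719 regions of the genome, and 21 had a peak in 1 library (19.6% against 24.3%). The windows hold promoters of other genes, which bears on these shares. The IFIT3 window held the most regions, 20, and that of MX1 the fewest, 5. IFIT1 and IFIT3 are neighbours on chromosome 10, and 5 regions belonged to both windows. Of the summit windows, which reach 100 bases to either side, 5 of 107 held the ISRE core (4.67%, against 2.35% of all regions) and 10 the GAS core (9.35% against 5.42%). The regions counted include promoters of the members themselves, among them ISG15 and IFIT1 for the ISRE core and IRF1, IRF7 and IRF9 for the GAS core. These shares are thus not those of the surroundings alone.

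**Figure D5:**
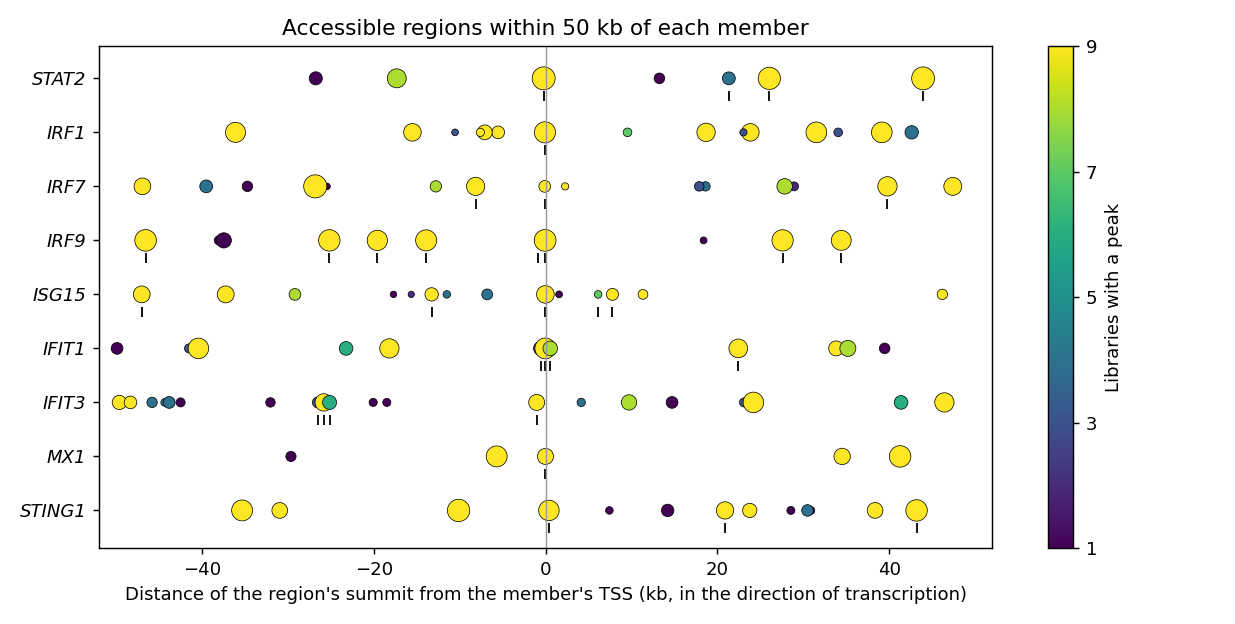
Regions within 50 kb of each member by distance from its TSS in kb, in the direction of transcription. Colour gives the number of the 9 libraries with a peak and the size of a point grows with the mean percentile. Ticks mark regions within 1 kb of the canonical TSS of a protein-coding gene.

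The strongest region away from promoters had a higher mean percentile than the member's own promoter in 4 of the 9 windows, those of IRF7, STING1, MX1 and IFIT3, and a lower one in 5. In the IRF7 window, a region at -26832 (chr11:642603-643043, intergenic) had a mean percentile of 94.6 and a peak in all 9 libraries, from 88.9 to 98.4, beside 19.1 at the IRF7 promoter. For STING1, an intergenic region at -10137 (chr5:139492456-139493229) had a mean of 88.0, from 78.3 to 97.3. For MX1, a region in an intron of TMPRSS2 (chr21:41466914-41467827), at 41273, had a mean of 81.1. The region between IFIT3 and IFIT1 (chr10:89351459-89352727) had one of 73.1 and belonged to both windows, beside 41.3 at the IFIT3 and 75.4 at the IFIT1 promoter. In the IRF1 window the strongest lay in an intron of IRF1-AS1 (chr5:132458668-132459899), with a mean of 74.7 beside 77.8 at the promoter. In the STAT2 window it was intergenic (chr12:56376889-56377622), with a peak in 8 libraries and a mean of 61.5 beside 93.7. In the ISG15 window it lay in an exon of PERM1 (chr1:975909-976784), with 47.3 beside 52.3. In the IRF9 window it lay in an exon of DCAF11 (chr14:24123682-24123897) and had a peak in 1 library, at 36.8, beside 83.2. A region is placed in a window by distance alone, and no link to the gene was measured.

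The STING1 region held an ISRE core and is shown for that reason, with 100 bases on either side of its summit (chr5:139492795-139492995, plus strand, hg38). A region at -5702 from the canonical MX1 TSS (chr21:41419993-41421102), with percentiles of 66.2 to 83.3, covers another RefSeq start of MX1 at -5681. An ISRE core begins 11 bases after that start, and 30 bases around it are shown (chr21:41420559-41420588, plus strand, GRCh38.p14). The groups overlapped at this region. Its percentiles were 83.3, 77.4 and 78.5 in the controls and 66.2, 78.9, 73.9 and 78.3 in the shEZH2, shSUZ12 and GSK126 libraries.
STING1 upstream region: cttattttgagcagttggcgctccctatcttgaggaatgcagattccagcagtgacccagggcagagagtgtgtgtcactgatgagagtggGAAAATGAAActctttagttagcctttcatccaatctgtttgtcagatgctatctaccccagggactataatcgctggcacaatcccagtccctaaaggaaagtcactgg
MX1 upstream start: gagcagaaatGAAACCGAAActgaattgtc

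A pair of regions in the IRF1 window had a peak in every control and in no PRC2-perturbed library (2 of 107, beside 0.71% of all regions). Both lie in introns of ENSG00000283782, and the one downstream of IRF1 also in an intron of IRF1-AS1. The region at 34064 from the IRF1 TSS (chr5:132456601-132456853) had percentiles of 13.0 and 2.87 in the shCtrl libraries and 5.14 with DMSO. The region at -10550 (chr5:132501162-132501425) had 0.885, 2.27 and 0.672. Neither had a peak in the shE2F1 libraries. All 6 values are low percentiles of fold enrichment, at 13.0 or below. How far these peaks lay above the calling threshold is not given, and presence alone says little about size.

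No region of the 107 had a peak in every PRC2-perturbed and no control library (0.0312% of all regions). Likewise none had one in every transduced and no drug-treated library (0.096%), or in every drug-treated and no transduced library (0.158%). The sequences of the 2 control regions are shown with 100 bases on either side of the summit (chr5:132456609-132456809 and chr5:132501223-132501423, plus strand, hg38). They hold neither core.
IRF1 downstream region: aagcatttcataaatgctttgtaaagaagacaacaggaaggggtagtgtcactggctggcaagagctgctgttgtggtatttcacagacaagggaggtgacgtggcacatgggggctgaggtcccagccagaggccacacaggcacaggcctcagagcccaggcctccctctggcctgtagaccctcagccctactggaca
IRF1 upstream region: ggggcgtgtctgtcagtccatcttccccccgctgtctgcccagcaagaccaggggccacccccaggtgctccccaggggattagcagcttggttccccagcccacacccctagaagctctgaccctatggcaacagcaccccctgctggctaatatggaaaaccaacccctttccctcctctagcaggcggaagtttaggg

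Of the regions away from promoters with a peak in every library, 29 lay in these windows. The percentiles of 2 did not overlap between PRC2-perturbed and control libraries, where 8.56% of all 29516 such regions did not in either direction. One, at 34526 from the MX1 TSS (chr21:41460280-41461665), was lower. Its percentiles were 63.1, 47.7 and 48.9 in the controls and 38.8, 15.1, 42.9 and 41.3 in the shEZH2, shSUZ12 and GSK126 libraries. This is the same direction as at the MX1 promoter in the same libraries. The other, at -48345 from the IFIT3 TSS (chr10:89279184-89279843), was higher, with 20.9, 23.1 and 3.19 in the controls and 28.2, 30.8, 25.7 and 31.1 in the perturbed libraries.

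Between transduced and drug-treated libraries, 1 of the 29 did not overlap, beside 5.38% of all such regions. It lies in an intron of IRF1-AS1, at 39145 from the IRF1 TSS (chr5:132451399-132451965). Its percentiles were 81.8 and 83.2 with DMSO and GSK126 and at most 79.7 in the transduced libraries.

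A further 79 genes of the pathway were taken from a list of ligands, receptors and kinases, sensors and adaptors, transcription factors, negative regulators and induced genes, which was drawn up with earlier results of these data known. Of these, 56 had a promoter peak in every library and 9 in none. Of all 20033 protein-coding genes, 12026 had one in every library and 14203 in at least 1. No ligand had a promoter peak in every library (0 of 8), and 6 of the 8, among them IFNB1 and IFNG, had no promoter peak in any list. Receptors and kinases had one in every library in 8 of 9 genes, sensors and adaptors in 8 of 8, transcription factors in 4 of 4, negative regulators in 4 of 4 and induced genes in 32 of 46. The chemokines CXCL10 and CXCL11, and IFITM1, were the induced genes without a peak in any list.

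By role, the highest and lowest mean percentiles were 95.6 for IFNAR1 and 24.7 for IFNGR2 among receptors and kinases. Those of sensors and adaptors were 83.4 for TBK1 and 45.8 for DHX58. The lowest of the transcription factors was IRF5 at 27.8. The highest and lowest were 85.8 for PIAS1 and 35.2 for SOCS3 among negative regulators, and 94.8 for TRIM21 and 20.0 for IFITM3 among induced genes.

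Among the 56 genes, 6 were lower in every PRC2-perturbed library than in any control and none higher (10.7% and 0%, beside 3.34% and 2.13% of all promoters). These were IL10RB, IKBKE, IRF5, IFITM3, MX2 and GBP2. MX2, the neighbour of MX1, had percentiles of 50.6, 59.7 and 64.1 in the controls. In the shEZH2, shSUZ12 and GSK126 libraries it had 35.0, 30.4, 47.9 and 49.9. GBP2, an interferon-induced GTPase, had means of 73.2 in the controls and 48.8 in the perturbed libraries, and IKBKE, a kinase that activates IRF factors, 57.4 and 36.8. By limma, 0 of the 56 passed an adjusted p of 0.05, and at an unadjusted p under 0.05 there were 5, all lower. Their median difference was -2.78, beside -0.777 over all promoters.

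For transduction, IFNGR2 and IFIT2 were higher without overlap and SOCS1 and UBE2L6 lower, 2 and 2 of 56 (3.57% each, beside 1.56% and 4.23% of all promoters). IFIT2, which lies beside IFIT3, was 38.2 with DMSO and 23.6 with GSK126 and averaged 56.2 in the transduced libraries. SOCS1, an inhibitor of JAK kinases, averaged 52.9 with the drug treatments and 35.7 after transduction. No gene of the list passed the adjusted threshold of limma for transduction, and 1 was higher and 1 lower at an unadjusted p under 0.05.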

How the data were processed

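The 9 ATAC-seq libraries of the MDA-MB-231 line were grouped by their labels. Nuclei of 50000 cells were transposed and the DNA was amplified for 7 cycles. Per the labels and methods, the authors used Bowtie2 and the hg38 (GRCh38) build, corrected read positions for the Tn5 offset and called peaks separately in each library. For the ATAC-seq libraries, the Bowtie2 version, the peak caller and the dose of GSK126 are not given in the sources used here. Each deposited list gives fold enrichment, a ratio to the local background, as well as the −log10 of p and of q and a score made from it. The lowest deposited −log10 q was 2.00. The lists hold only peaks over that threshold, so a missing peak is not a measured value of 0. Ranks cannot show a shift shared by all peaks of a library.

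Summit tags were recovered by solving each peak's fold enrichment and −log10 p together, under a Poisson model, for 100% of peaks, within 0.01 in −log10 p. Percentiles of fold enrichment were computed within each list. TSSs were those of the Ensembl canonical transcripts of 20033 protein-coding genes (GENCODE release 44). Peaks overlapping by 1 base were merged into regions, placed by the summit of their strongest peak.

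The main test was limma (version 3.58.1, R 4.3.3) with a mean-variance trend, on the 12026 promoters with a peak in every library, with Benjamini-Hochberg adjustment over all of them. Single members were tested by 2-sided exact permutation over libraries. In data simulated for this fit, of 200 promoters raised by 40 points, 86.5% were recovered for the PRC2 term and 76.0% for transduction. Of 200 raised by 20 points, 39.5% and 41.0% were recovered. At 40 points, 12 and 7 other promoters were also called, and at 20 points 2 and 5. Real promoter medians were 73.4 to 82.0, so many rises of 40 points would pass the top of the percentile scale. Falls were not simulated, so these shares do not give the power to detect one such as that of IRF9 or MX1. Scripts ran in Python 3.11.15 (matplotlib 3.10.9, scipy 1.17.1, pandas 2.3.3, numpy 2.4.6).

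Named were all members, the highest and lowest promoter of each role, genes of the list that passed limma, regions that separated the groups and the strongest region of each window away from promoters. Genes of the list whose groups did not overlap, the other RefSeq starts and the IFIT3 peak sites were named after their values were seen. The members and gene lists were chosen with earlier results of these data known. Alternatives changed the rank, the list length, the peak threshold, the windows and overlap, the treatment of missing peaks, the libraries and the replicate block. A gene of the list and a sequence are not reported here.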

Additional observations from a re-analysis of the deposited data

Results flagged for a closer look

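IRF1 was flagged because its promoter differences with PRC2 perturbation had opposite signs in the 2 sets of libraries. In the transduced libraries, the shEZH2 and shSUZ12 percentiles were all above both shCtrl ones, by 11.2 points between the means. In that subset 17.6% of all promoters did not overlap in either direction. GSK126 minus DMSO was -1.32 points, with 1 library each, where the shCtrl libraries themselves stood at 74.4 and 62.4. The difference between these effects was not tested. No library stood apart from its group in the 18 sets of 4 or 7 percentiles examined with Dixon's criterion, which by chance marks about 1 in 20 groups.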

How the results depend on the processing

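No promoter passed an adjusted p of 0.05 by limma for PRC2 perturbation, or for transduction apart from 1 promoter without the shSUZ12 library, under the alternatives other than the nearest peak (range over single omissions 0 to 0 and 0 to 1). That one, the peak nearest to the TSS, an alternative chosen after seeing the data, gave 1 promoter for each. Omitting each library in turn left 2 to 3 members without overlap for PRC2, the third being IRF1 without DMSO, and 0 to 2 for transduction. The latter were IRF1 without the second shEZH2 library, STING1 without DMSO, and IRF1 and IFIT1 without GSK126. Leaving out a library can only keep or raise such a count. The share of all promoters in these reduced sets is not given, so the counts are not read as results about the members. The PRC2 count was 1 with lists shortened to equal length and with a window of 500 bp. MX1 then had no peak in the first shE2F1 library and was left out, since a peak in every library was required. That library is in neither group, so the MX1 separation was not examined there rather than ended. When ranked among promoters the count was also 1, and there MX1 did overlap (difference -12.1). The transduction count was 6 of 9 between shCtrl and DMSO only, where 68.2% of all promoters did not overlap. IRF9 stayed without overlap under all 20 alternatives that gave a value, at -8.85 ranked by −log10 p and -27.9 among promoters. Those that left out libraries could not have ended the separation, and the shE2F1 libraries were not part of it. The difference stayed at -15.1 with a window of 500 bp or 2 kb, the nearest peak, or absent peaks at percentile 0. The number of alternatives is therefore no measure of how firm the separation is. The transduction difference of IRF1 was -0.598 ranked by −log10 p and -17.9 to -5.46 on omitting 1 library. For the E2F1 term, the IFIT3 difference was -21.8 with the nearest peak. A −log10 q of at least 5 removed the IFIT3 peak of the second shEZH2 library, so 8 members kept a peak in every library, and a window of 500 bp kept 7. Regions numbered 58, with 30 in every library, within 25 kb, and 103 to 107, with 54 to 58 in every library, on omitting 1 library. With the replicate number as a block, the fit also held a term for DMSO, GSK126 and shSUZ12, whose labels give no number. For PRC2 perturbation 0 promoters were called, and the differences of IRF9 and MX1 were -17.0 and -27.2. These are also the values without shSUZ12, which has no part in the PRC2 term of that fit. The transduction term there depends on the single shSUZ12 library and is not read. The labels do not say whether the replicate numbers pair the libraries. Deviations from the group mean correlated across promoters at 0.0571 and 0.0544 between shCtrl and the shEZH2 and shE2F1 groups. Between the shEZH2 and shE2F1 groups the correlation was -0.0247. Such values cannot settle whether libraries were made in pairs. No overlap count can be made with the block. Ranks of MX1 and IFIT3 rest on as few as 15 tags.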
